A study of Mus musculus with 23 samples.

Results

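Long fragments are the intervals of 2000 to 9999 bp between neighbouring CCCGGG sites on mouse chromosomes 1 to 19 (build mm9) that had 10 or more reads summed over all 23 libraries. They number 33262 of the 173430 fragments in the deposited count table and hold 2.86% of all reads. Another 15238 autosomal fragments of that length had fewer than 10 reads, and 1002 of these had none. Because the read sum chose the members, that sum is a description and not a result, and the comparisons of groups were also run without it. At the edge of the rule, 1550 members had exactly 10 reads and 1586 fragments left out had 9. By length, 6839 members lie in the step of 2000 to 2999 bp, 5569 in the next step of 1000 bp, 4791, 4021, 3455, 3107 and 2794 in the steps that follow, and 2686 in the step of 9000 to 9999 bp.

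The study followed DNA methylation in the muscle lineage, and its libraries fall into 9 groups. Skeletal muscle gave 3 libraries of whole tissue, labelled 129Sv/C57BL/6J (muscle 1 and muscle 2) and C57BL/6J (muscle 3). Primary myoblasts, which are dividing muscle precursor cells, came from 3 cultures numbered 21, 27 and 26, labelled C57BL/6J and sampled at passage 8 to 10. The same cultures were sampled as myotubes after 1, 2 and 4 days in differentiation medium. The library titles of culture 21 carry the mark wt, and those of cultures 27 and 26 do not. Passage 0 cells came from cultures 26 and 27, and freshly isolated cells, which carry the cell type label of primary myoblasts, gave 1 library from injured muscle, taken 3 days after cardiotoxin, and 1 from uninjured muscle, all labelled C57BL/6J. Embryonic stem cells (ESC) were 3 established lines of other backgrounds, CGR8 (129Sv), RD1 (129X1/SvJ) and E14Tg2 (129/Ola). CGR8 was sequenced a second time as a technical replicate; both libraries were added up and count as 1 line, which leaves n = 3. Every library but that of E14Tg2 is labelled male, and no ages are used here. The ESC lines and the muscle-lineage cells therefore differ in strain background as well as in cell type, and the 2 cannot be told apart. Muscle tissue also holds endothelial cells, blood cells, fibroblasts, fat cells and Schwann cells, and these libraries cannot tell a change in cell make-up from a change within a cell type.

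The assay, AIMS-seq, reads methylation through a pair of enzymes that share one site. Unmethylated CCCGGG sites are first cut by SmaI, which gives blunt ends. The methylated sites left over are opened by XmaI, and adaptors ligate to the cohesive ends that this gives. A fragment is therefore amplified when the site at each of its ends is methylated, and a read count is a relative abundance, not a percentage of methylation. In mammalian genomes most CpGs outside CpG islands are methylated, islands at promoters mostly are not, and retroviral long terminal repeats (LTR) are kept methylated in most tissues. PCR amplifies short molecules more readily than long ones. The authors' 7 deposited comparison tables hold no fragment of 2000 bp or longer.

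The sequences below are the outermost 46 bases at each end of 8 members that carry the patterns described further on, from the mm9 reference, plus strand, with the restriction site in capitals. They are the Gramd4 fragment (chr15:85928722-85938028, 9307 bp, over exons), read in the ESC lines; the Strap fragment (chr6:137692485-137698724, 6240 bp, over exons) and the Tcp11l1 fragment (chr2:104510594-104517171, 6578 bp, intronic), read in some muscle-lineage libraries and not in others; an intergenic fragment of chromosome 10 (chr10:4554073-4560928, 6856 bp), read in every library; the Fstl5 fragment (chr3:76310130-76314249, 4120 bp, intronic), also read in every library; and the fragments in Tgfa (chr6:86180834-86182891, 2058 bp, intronic), Ly86 (chr13:37469301-37472035, 2735 bp, intronic) and Mtmr12 (chr15:12185749-12188388, 2640 bp, over exons), which differed between groups.
Gramd4 left end: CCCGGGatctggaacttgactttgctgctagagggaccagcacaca
Gramd4 right end: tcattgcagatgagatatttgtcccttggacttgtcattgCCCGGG
Strap left end: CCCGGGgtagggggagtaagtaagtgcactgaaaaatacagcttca
Strap right end: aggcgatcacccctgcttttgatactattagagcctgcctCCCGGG
Tcp11l1 left end: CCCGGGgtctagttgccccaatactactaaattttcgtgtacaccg
Tcp11l1 right end: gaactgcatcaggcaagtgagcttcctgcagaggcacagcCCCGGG
Chromosome 10 left end: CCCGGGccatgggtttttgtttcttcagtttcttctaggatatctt
Chromosome 10 right end: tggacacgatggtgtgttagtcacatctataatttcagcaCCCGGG
Fstl5 left end: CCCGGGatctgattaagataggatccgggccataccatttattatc
Fstl5 right end: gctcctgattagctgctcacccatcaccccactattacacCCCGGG
Tgfa left end: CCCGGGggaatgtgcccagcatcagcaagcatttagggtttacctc
Tgfa right end: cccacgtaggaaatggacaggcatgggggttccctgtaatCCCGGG
Ly86 left end: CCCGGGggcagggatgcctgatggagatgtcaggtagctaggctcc
Ly86 right end: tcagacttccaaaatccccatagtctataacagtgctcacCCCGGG
Mtmr12 left end: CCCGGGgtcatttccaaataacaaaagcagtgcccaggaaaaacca
Mtmr12 right end: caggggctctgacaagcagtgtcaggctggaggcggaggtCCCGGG

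Library totals ran from 6237851 reads (fresh, uninjured) to 24505365 reads (CGR8, both libraries), and members held 79513 to 1204530 of them. The members are mostly far from CpG islands: 27726 (83.4%) lie in open sea, 2695 on island shores, 2550 overlap an island and 291 overlap an island and its shore. No repeat class is given for 17350, and 6188 are classed as SINE, 5949 as LTR and 3774 as LINE. By GENCODE M1 genes, 9159 overlap exons, 6483 lie within introns, 4498 overlap a promoter (here 2000 bp before a gene start and 500 bp after it), and 13122 are intergenic. The median member had 31 reads over all libraries, and the most-read member, the chromosome 10 fragment above, had 60183.

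Before the groups are compared, libraries that stand apart within a group need to be named. Of the 824 members with 10 or more reads in both muscle 1 and muscle 2, 81 (9.83%) had at most 1 read in muscle 3. These split members lie on 11 chromosomes, and 68 of them (84.0%) lie on chromosomes 2, 4, 6, 11 and 17, which hold 32.9% of all members. On each chromosome, the range from the first to the last of them is called a block here. The block chr11:57640716-101670549 holds 18 split members, 47.4% of its 38 members with 10 or more reads in both muscle 1 and muscle 2. The block chr4:133451359-141816307 holds 16, or 59.3% of 27. On chromosome 5 the range is wide, and 10.6% of 47 were split. The summed reads of the split members were 25307 in muscle 1 and 27839 in muscle 2, against 19 in muscle 3. The cultures also fell apart, although the split members were picked on muscle reads alone. Culture 21 had 236 reads as myoblasts and 236, 229 and 133 reads after 1, 2 and 4 days, whereas cultures 27 and 26 had 25768 and 19604 reads as myoblasts and 20891 to 32467 at the later stages. Passage 0 cells had 17553 (culture 26) and 20824 (culture 27) reads, fresh cells 19879 (injured) and 15202 (uninjured), and the ESC lines 54790 (CGR8), 20010 (RD1) and 17899 (E14Tg2). By these sums culture 21 was near the C57BL/6J muscle library, and the other cultures and the fresh cells, which carry the C57BL/6J label too, were nearer to the muscle libraries labelled 129Sv/C57BL/6J. The sums hide a difference between cultures 27 and 26. Of the 81 split members, 14 had fewer than 10 reads in all 4 stages and in passage 0 of culture 26, and none did in culture 27. In the chromosome 4 block this held for 10 of the 16 members, with at most 7 reads in any culture 26 library, so culture 26 was near muscle 3 there. At the member starting at position 136174722, for example, myoblasts of culture 27 had 688 reads and those of culture 26 had 0.

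Most single split members had few reads in culture 21, with under 10 in each of its 4 stages at 75 of the 81. The other 6 were intermediate in at least 1 stage, such as a SINE fragment of chromosome 11 (chr11:101661727-101670549) with 32, 24, 23 and 22 reads in the myoblasts and after 1, 2 and 4 days. The Strap fragment, in a gene for a serine/threonine kinase receptor associated protein, had 667 and 1050 reads in muscle 1 and muscle 2 and 0 in muscle 3, and 1, 1284 and 1981 reads in myoblasts of cultures 21, 27 and 26. The exonic Uqcc fragment (chr2:155739183-155747626, 8444 bp), in a gene for an assembly factor of respiratory complex III, had 1105, 1435 and 1 reads in muscle 1, 2 and 3 and 2, 1044 and 1141 reads in those myoblasts. Not every split member was read in ESC. The Tcp11l1 fragment had 1043, 685 and 0 reads in muscle 1, 2 and 3 and 3, 1691 and 1277 in the myoblast cultures 21, 27 and 26, while the 3 ESC lines had 25, 0 and 1. The converse set, with 10 or more reads in muscle 3 and at most 1 in muscle 1 and muscle 2, held 66 members. It had few reads, with 1158 in muscle 3 and 30 and 25 in muscle 1 and muscle 2. Its sums in myoblasts of cultures 21, 27 and 26 were 3371, 2892 and 1240, so it is not a mirror of the split members. Where a test below leaves out the split members, it leaves out both sets.

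Muscle had the smallest share of its reads in long fragments and ESC the largest. Members took 0.964%, 0.886% and 0.967% of the reads of muscle 1, 2 and 3, against 2.12%, 4.31% and 2.56% in myoblasts of cultures 21, 27 and 26 and 4.92%, 6.28% and 7.02% in CGR8, RD1 and E14Tg2. The libraries of the 3 groups did not overlap. The means were 0.939% ± 0.046 in muscle, 3.00% ± 1.16 in myoblasts and 6.07% ± 1.07 in ESC (SD, n = 3 each), and an exact permutation test over the 3 groups gave p = 0.003571, the smallest that its 1680 arrangements allow. Pairs of groups of 3 cannot go below p = 0.1, which each of the 3 pairs reached (exact permutation, 2-sided). Without the split members the difference between muscle and ESC was -5.07 percentage points, against -5.13 with them.

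**Figure D1:**
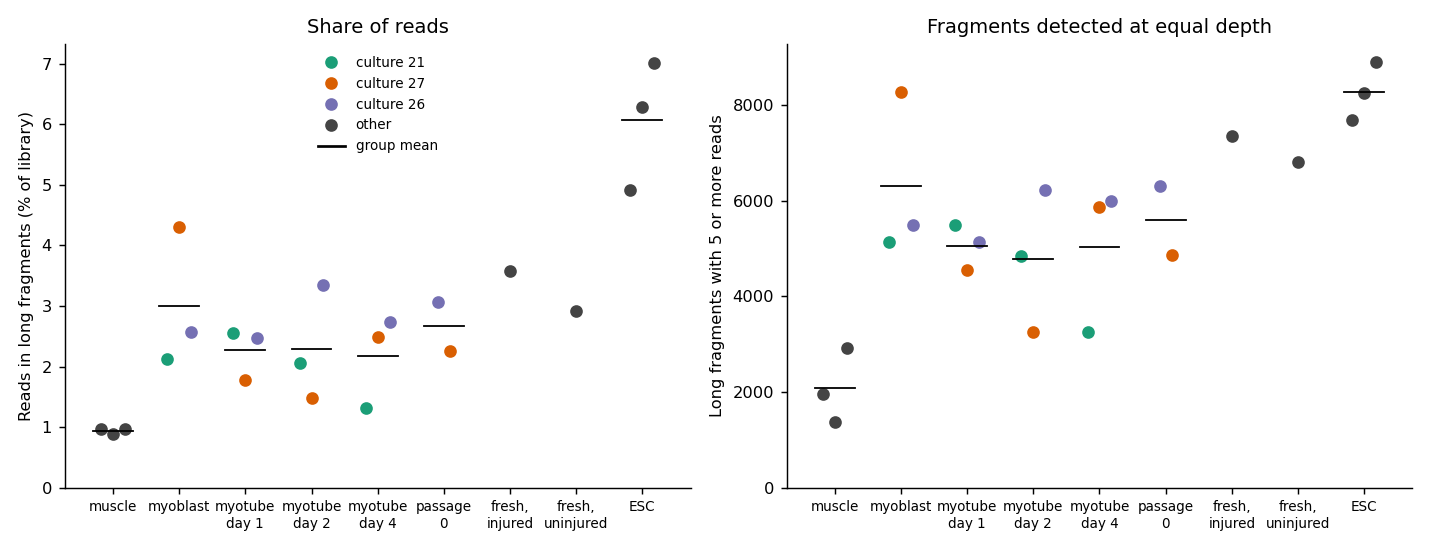
Percent of each library's reads in long fragments (left) and the number of long fragments expected to have 5 or more reads once every library is thinned to 6237851 reads (right). Each point is 1 library, coloured by culture, and lines are group means; muscle lies below every other group in both panels, and ESC reach 7.02% of reads.

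Myotubes of all 3 stages lay above muscle and below ESC, and 4 of these 9 libraries lay below the lowest myoblast library. Day 1 myotubes of cultures 21, 27 and 26 had 2.55%, 1.78% and 2.47% of their reads in members, day 2 myotubes 2.06%, 1.48% and 3.34%, and day 4 myotubes 1.32%, 2.48% and 2.73%. The slope over the stages was -0.168 percentage points per day and did not pass an exact permutation test of stages within cultures (p = 0.340). It was -0.245 in culture 21, -0.333 in culture 27 and 0.0741 in culture 26, so the cultures did not move one way. Passage 0 cells had 3.07% and 2.26%, and fresh cells 3.58% (injured) and 2.91% (uninjured), with 1 library each and no test. All of these lay above the 3 muscle libraries and below the 3 ESC lines.

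At equal depth fewer long fragments were detected in muscle. After thinning to 6237851 reads, 1957, 1375 and 2919 members were expected to have 5 or more reads in muscle 1, 2 and 3, against 5142, 8273 and 5485 in myoblasts of cultures 21, 27 and 26 and 7689, 8247 and 8896 in the ESC lines. The means were 2083 ± 780, 6300 ± 1718 and 8277 ± 604 members in muscle, myoblasts and ESC (SD, n = 3 each; exact permutation p = 0.0107). Muscle did not overlap the other groups, while myoblasts and ESC did. With an equal number of reads within members instead, 79513 per library, the difference between muscle and ESC shrank to -653 members and did not pass (exact permutation p = 0.0821). The means were then 2632 ± 812 in muscle, 3813 ± 470 in myoblasts and 3285 ± 533 in ESC (SD, n = 3 each), so myoblasts were highest. The part of the read share and of other properties in detection was not tested. Long fragments were also not alone in this: fragments of 1000 to under 2000 bp took 6.75% ± 1.05 of reads in muscle, 11.1% ± 1.95 in myoblasts and 13.5% ± 2.30 in ESC, fragments of 200 to under 500 bp 49.5% ± 1.43, 47.4% ± 4.42 and 39.2% ± 3.68, and fragments of 10000 bp and longer 1.24% ± 0.313, 1.72% ± 0.116 and 4.96% ± 0.452 (SD, n = 3 each). Whether fragment size in the library or methylation moves the share was not tested.

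Of muscle, myoblasts and ESC, muscle had the lowest mean read share in every length step. Among all groups the step from 8000 bp was an exception, with 0.0727% in muscle against 0.0697% in day 4 myotubes. In the step from 2000 bp the share was 0.475% ± 0.152 in muscle, 1.83% ± 0.733 in myoblasts and 2.80% ± 0.832 in ESC (SD, n = 3 each), and in the step from 9000 bp it was 0.0423% ± 0.0123, 0.0597% ± 0.00431 and 0.342% ± 0.0231. Over the 8 steps the exact permutation test over the 3 groups gave Benjamini-Hochberg adjusted p-values from 0.00476 to 0.0393. The ratio of muscle to ESC ran from 0.0890 in the step from 3000 bp to 0.217 in the step from 6000 bp, with no steady order over the steps. The ratio of myoblasts to ESC was 0.651 in the step from 2000 bp and 0.175 in the step from 9000 bp. From about 4000 bp up the ESC share stayed level, between 0.291% and 0.430%, although the detected members averaged 986 in the step from 4000 bp and 230 in the step from 9000 bp.

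In most libraries the reads of long steps sat on few fragments. In the step from 2000 bp the 1% most-read members held 24.7% of the step's reads in muscle, 10.3% in myoblasts and 17.9% in ESC (means of 3 libraries). In the step from 9000 bp they held 62.0%, 40.6% and 76.2%. The median member of the steps from 5000 bp up had 0 reads in each muscle library. It had 4 or 5 reads in CGR8, which has the most reads, and 1 in RD1 and E14Tg2. These medians are not at equal depth. A step's share is therefore carried by a small number of much-read fragments over a large number with a few reads.

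**Figure D2:**
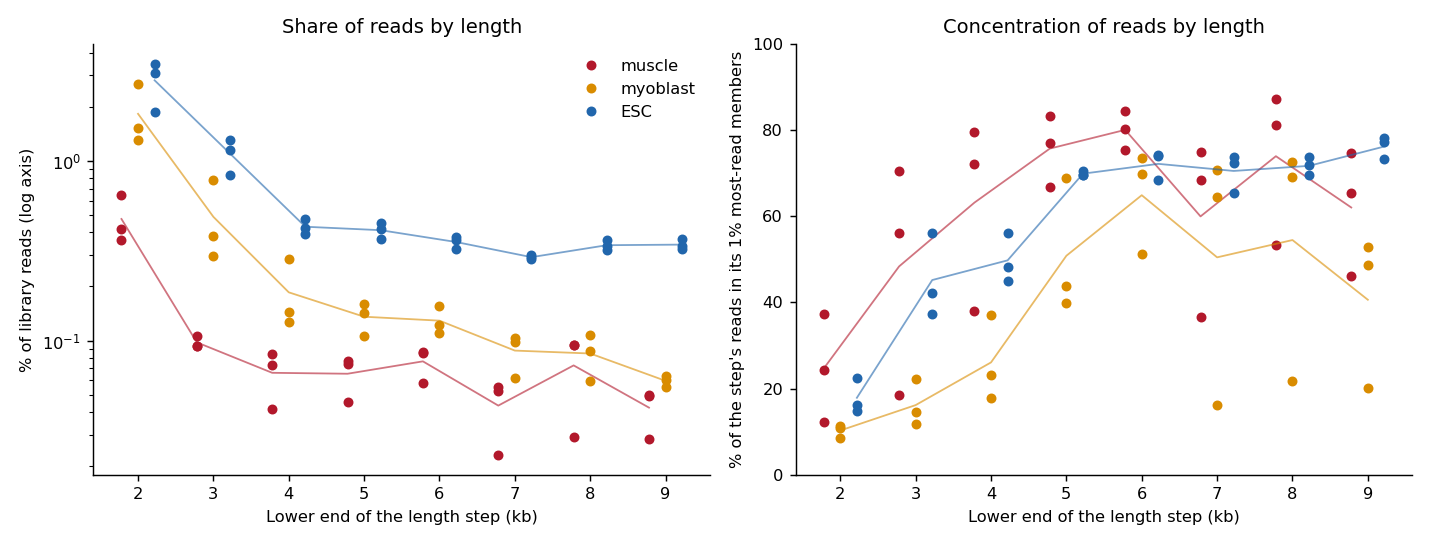
Percent of library reads in each length step (left, log axis) and percent of the step's reads that fall on its 1% most-read members (right), for muscle, myoblasts and ESC. Points are libraries and lines join group means; muscle is lowest by mean in each step on the left, and from 5000 bp up the ESC lines have 65.3% to 78.1% of a step's reads on 1% of its members.

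The patterns of these fragments were defined after their values were seen and are given with no test. Of the 16063 members of 5000 bp and longer, 178 (1.11%) had 1000 or more reads and held 61.8% of the reads of all of them. Among the 178, 70 had 10 or more reads in every ESC line and less than 1% of the mean ESC level (reads over library total) in each of the 17 myoblast, myotube, muscle and passage 0 libraries. A further 37 were split members, 17 had 10 or more reads in every library, and 54 had other patterns.

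**Figure D3:**
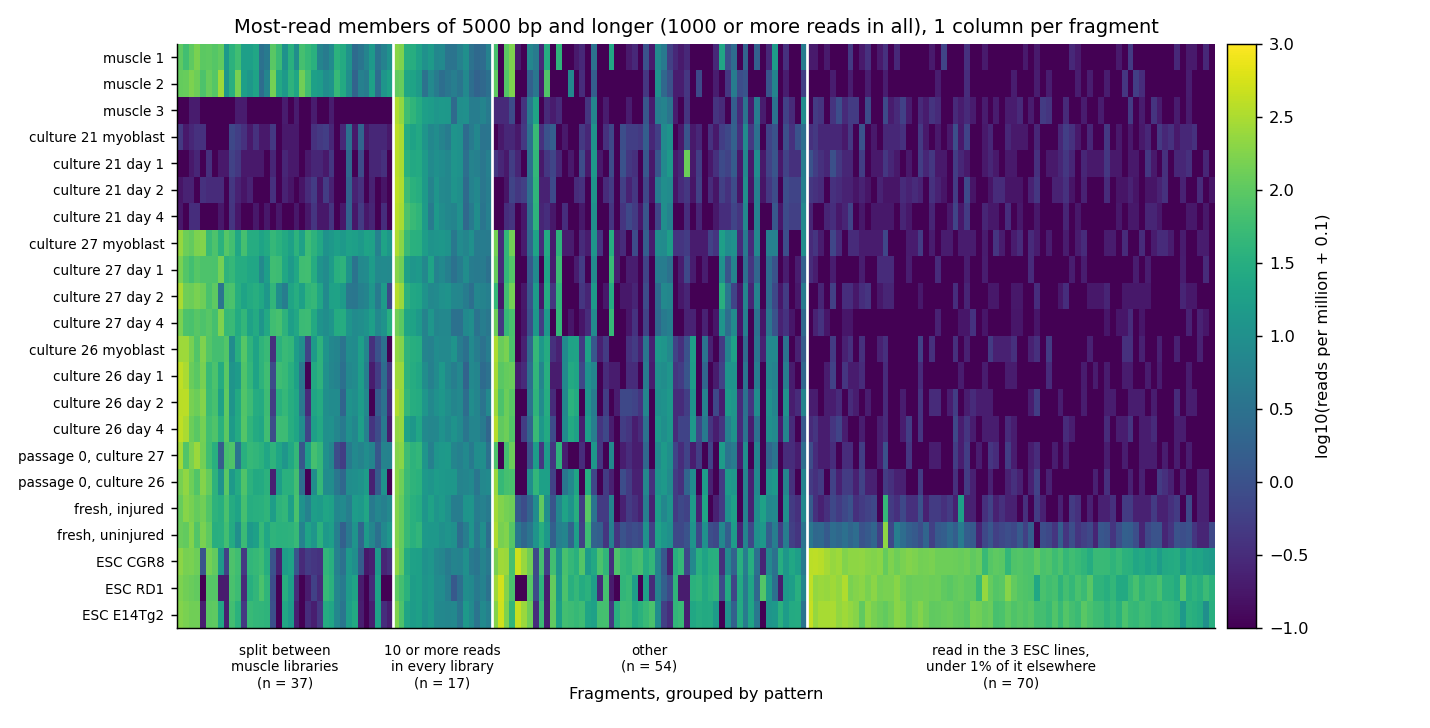
Reads scaled to 1e6 library reads (colour, log10 after adding 0.1) of the 178 members of 5000 bp and longer with 1000 or more reads, with libraries in rows and 1 fragment per column, grouped by pattern. The 70 fragments at the right are bright in the 3 ESC rows and faint in the row of fresh uninjured cells, and the 37 split fragments at the left are dark in muscle 3, dark or faint in the 4 stages of culture 21, and in part dark in culture 26.

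Over all lengths 121 members had the ESC pattern. They held 24.2%, 19.4% and 17.1% of the member reads of CGR8, RD1 and E14Tg2, and 42.8%, 48.4% and 45.4% of their reads in members of 5000 bp and longer. In the muscle libraries they held 59, 30 and 131 reads in all, and in the myoblast libraries 162, 180 and 83. The fresh cells, which the definition did not use, had 759 (injured) and 2175 (uninjured) reads there, or 0.274% and 1.20% of their member reads. Of the 2175 reads, 1355 lay on the 16 such members in the step from 5000 bp. The definition itself holds the other muscle-lineage libraries low, so the fresh cells cannot be ranked against them here. The 121 members lie on all 19 autosomes, with at most 16 on 1 of them, while 84.0% of the split members lie on 5 chromosomes. Their median GC content was 47.3%, against 46.6% over all members, and 90.1% lie in open sea, against 83.4%. Without them, members took 0.938% ± 0.045 of the reads in muscle, 3.00% ± 1.16 in myoblasts and 4.87% ± 1.06 in ESC (SD, n = 3 each).

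The ESC lines also differed from each other at a few members. Of 1117 members with 100 or more reads in both CGR8 and E14Tg2, 17 (1.52%) had less than 1% of that level in RD1. The Slc38a1 fragment (chr15:96407973-96413401, 5429 bp), in a gene for a glutamine transporter, had 5968 reads in CGR8, 2075 in E14Tg2 and 0 in RD1. The Dmrt1 fragment (chr19:25592788-25599658, 6871 bp), in a gene for a transcription factor of testis development, had 1792 reads in CGR8, 528 in E14Tg2 and 2 in RD1. None of 1011 members was missing in this way from CGR8 and none of 1097 from E14Tg2.

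The members read in every library numbered 347 and were mostly short, with 301 in the step from 2000 bp. From 5000 bp up there were 28, and 75.0% of these carry a repeat class. The chromosome 10 fragment had 2068, 987 and 3361 reads in muscle 1, 2 and 3, 4382, 3153 and 1665 in myoblasts of cultures 21, 27 and 26, and 5195, 1033 and 1416 in the ESC lines. The most-read member of the step from 5000 bp, an intergenic fragment over an IAPEz retroviral element (chr7:79788302-79794109, 5808 bp), had 1798, 1055 and 2218 reads in muscle, 3380, 1891 and 1385 in the myoblasts, and 2692, 633 and 636 in the ESC lines. The Fstl5 fragment, in a gene for a follistatin-like secreted protein, was read everywhere but unevenly, with 40, 15 and 52 reads in muscle, 39, 43 and 17 in myoblasts, and 3812, 1268 and 1229 in the ESC lines.

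The make-up of member reads by genomic context was compared over the 3 groups in 12 classes. The 291 members over both an island and its shore took 0.495% ± 0.0757 of member reads in muscle, 0.218% ± 0.0269 in myoblasts and 0.139% ± 0.0324 in ESC. Introns took 19.11% ± 3.16, 24.5% ± 0.425 and 25.3% ± 0.545 (SD, n = 3 each). These 2 classes passed (exact permutation, Benjamini-Hochberg adjusted p = 0.0429 for each). The separate classes of island members and of shore members did not pass (exact permutation, adjusted p = 0.182 and 0.333). LTR elements took 22.4% ± 4.27, 22.1% ± 1.33 and 18.4% ± 0.991 and promoters 9.02% ± 2.30, 6.08% ± 0.376 and 6.36% ± 0.921, and neither passed (adjusted p = 0.316 and 0.207). In the step from 2000 bp alone only introns passed. Promoter reads were 9.73%, 10.9% and 6.45% in muscle 1, 2 and 3, so the C57BL/6J library again stood apart. The share of member reads from 5000 bp up was 32.2% ± 11.5 in muscle, 17.4% ± 3.65 in myoblasts and 29.4% ± 6.52 in ESC and did not pass (exact permutation p = 0.114). Direction and call rest on the split members and on muscle 3: it was 37.1% and 40.6% in muscle 1 and 2 and 19.07% in muscle 3, and without the split members the difference between muscle and ESC was -3.27 percentage points and the test over the 3 groups passed (exact permutation p = 0.0464), against 2.89 with them. Without muscle 3 the difference was 9.48 points and the test passed as well (exact permutation p = 0.0393), and without muscle 2 the difference was -1.28 points.

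Single members were tested with edgeR on raw counts of all fragments, under a pair of scalings. TMM scaling sets a member against the bulk of the library. Length-step scaling sets it against the summed reads of its own length step, so that the step's read share no longer enters. From 5000 bp up most of that sum in ESC lies on few fragments. Differences at those fragments therefore shift the values of all others in the step. A low-count filter passed a small part of the members, and a long member passes mainly if it is high in one of the groups compared, so the counts of calls describe the members that passed and not long fragments at large. A member is called where its p, adjusted by Benjamini-Hochberg over all fragments tested, lies under 0.05. With no unique molecular identifiers, counting intervals cover counting error only.

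For muscle against ESC, 4937 members passed the filter. Under TMM scaling 3854 of them were called lower and 141 higher in muscle, against 34.6% lower and 24.4% higher of all 22980 fragments tested. Within their length step 1011 were called lower and 440 higher, beside 23.1% and 19.2% of all tested. All 1011 lower calls were lower calls under TMM as well, as were the 141 higher ones. The median log2 change within the step was -0.65 over tested members and -0.29 over all tested fragments. From 5000 bp up, where 493 of 16063 members passed, 284 were called lower and 86 higher within their step (331 and 23 under TMM), and 85 of the 284 had the ESC pattern. That pattern is defined by low reads in these muscle libraries, so the 85 are no separate result. The counts rest partly on single libraries: without E14Tg2 there were 946 calls within the step, and without muscle 1 there were 828, against 1451. With no low-count filter the balance within the step turned, to 1423 higher and 901 lower.

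The lower calls in muscle were led by much-read fragments of the ESC lines with at most 1 read in the 3 muscle libraries together. The Gramd4 fragment had 1, 0 and 0 reads in muscle 1, 2 and 3, against 9451, 4221 and 3782 in CGR8, RD1 and E14Tg2, 12120-fold fewer in muscle relative to library totals (exact 95% counting interval 2175 to 478600; adjusted p = 5.09e-05 with edgeR within the step). The fragment in Gcn1l1 (chr5:116025618-116028611, 2994 bp), whose product activates a kinase of the amino acid starvation response, had 0, 0 and 1 reads in muscle and 8360, 3826 and 3459 in ESC. The fragment in Matn2 (chr15:34238899-34248197, 9299 bp), which encodes an extracellular matrix protein, had 1, 0 and 0 and 7013, 2312 and 2539. All 3 fragments overlap exons. Those in Csmd2, which encodes a transmembrane protein of neurons, and in Qsox1, which encodes an oxidase that forms disulphide bonds, had 1 read in all in muscle, against 1053 to 4717 and 870 to 5397 reads per ESC line. In muscle no reads were found for the fragments in Tmem108 (chr9:103404528-103412069) and Trim58 (chr11:58465320-58474800), which encodes a ubiquitin ligase of red cell precursors. Against a floor of 3 reads over the muscle libraries these were at least 1757-fold and 1502-fold lower.

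Members called higher in muscle were shorter and had fewer reads. The Tgfa fragment, in an intron of a growth factor gene, had 96, 63 and 98 reads in muscle, against 1, 0 and 0 in ESC, or 370-fold more relative to library totals (exact 95% counting interval 65.9 to 14680). Fragments in introns of Tnfsf11, which encodes the cytokine RANKL that drives osteoclast formation (chr14:78689114-78691265), and of Gch1, which encodes the first enzyme of tetrahydrobiopterin synthesis (chr14:47799488-47801744), had 23, 19 and 36 and 18, 11 and 23 reads in muscle, and each had 1, 0 and 0 in ESC. The promoter fragment of Zfp93, a zinc finger gene (chr7:25053084-25055413), had 22, 10 and 42 reads in muscle and 1, 0 and 0 in ESC. At greater length, the intronic Prpf18 fragment (chr2:4545893-4553872, 7980 bp), in a splicing factor gene, had 105, 64 and 86 reads in muscle and 10, 14 and 3 in ESC, a log2 change of 6.44 ± 0.74 within the step and 4.41 under TMM (SE; edgeR adjusted p = 0.000317 within the step). The Slc44a1 fragment (chr4:53482175-53488591, 6417 bp), in a choline transporter gene, had 49, 33 and 220 reads in muscle and 16, 7 and 2 in ESC, with muscle 3 above the others.

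The counts for the gene lists in muscle against ESC, given within the length step, stand beside 8.91% higher and 20.5% lower of all tested members (median log2 change -0.65) and 42.4% of all tested fragments called in either direction. With so few members per list, nothing is read from them about a list. Of 39 tested members in genes of neural channels and adhesion, 12 were lower and 2 higher (median log2 change -1.17). The Csmd2 member is one of them, and the intronic Rbfox1 member (chr16:6894872-6902281), in a gene for a splicing regulator of neurons and muscle, had 0, 0 and 1 reads in muscle and 2596, 1035 and 1212 in ESC. Of 9 members in contractile and calcium handling genes 3 were lower and 0 higher (median -1.05). Of 5 members in pluripotency genes 2 were higher and 0 lower (median 1.12). The Lin28a promoter member (chr4:133576023-133578036), in a gene for an RNA-binding protein of stem cells, had 29, 13 and 25 reads in muscle and 16, 10 and 11 in ESC, a log2 change of 3.74 ± 0.47 within the step and 2.02 under TMM (edgeR adjusted p = 0.000459 within the step).

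Of the other lists, beside the same shares over all tested members, 7 tested members lie in genes of endothelial cells, with 1 higher and 2 lower, and 5 in genes of blood cells, with 0 higher and 2 lower. The 9506-bp Vwf member, in the gene for von Willebrand factor, is the higher one and is a split member, with 404, 433 and 0 reads in muscle 1, 2 and 3 and 136, 68 and 58 in ESC. Its call therefore rests on muscle 1 and muscle 2. Of 4 members in genes of the DNA methylation machinery 1 was lower. It lies over exons of Dnmt1, the maintenance methyltransferase (chr9:20726216-20733113, 6898 bp), and had 0, 1 and 2 reads in muscle and 110, 67 and 91 in ESC. None of the 2 tested members in myogenic regulators, 4 in imprinted genes, 2 in germ line genes and 1 in adipocyte genes was called by edgeR, and no member in HOX, fibroblast or Schwann cell genes passed the filter. Reads at a marker gene do not measure its expression. The sites were looked up in the reference alone, and whether the strains differ in sequence at them was not tested.

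By context, the calls at promoter members in muscle against ESC depended on the scaling, as a description with no test of a difference from other members. Of 291 tested promoter members 26.1% were higher and 27.5% lower within their step, beside 8.91% and 20.5% of all 4937 tested members. Under TMM 12.7% were higher and 60.8% lower, beside 2.86% and 78.1%, so that promoter members were called higher more often under both scalings, and lower more often within the step and less often under TMM. Of the 13 tested members over an island and its shore, 8 were higher and 1 lower. Under TMM these were 7 and 1. Open sea members, 4610 of those tested, had 348 higher and 925 lower within their step and 99 and 3659 under TMM. Shorter fragments of 200 to under 2000 bp that share a restriction site with a called member gave a side view of the same ends. Of 113 such neighbours of members called higher, 24.8% were higher and 11.5% lower, and of 204 neighbours of members called lower, 20.1% were higher and 25.0% lower, while all 13658 tested fragments of that length had 21.8% and 21.1%. Of 752 neighbours of tested members that were not called, 13.3% were higher and 23.3% lower. Most neighbours of called members, given within the step, were not called in the direction of the member. Under TMM, 10 of 18 neighbours of members called higher were higher and 0 lower. Of 802 neighbours of members called lower under TMM, 22.8% were higher and 21.45% lower. All tested fragments of that length had 32.2% higher and 18.7% lower under TMM.

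**Figure D4:**
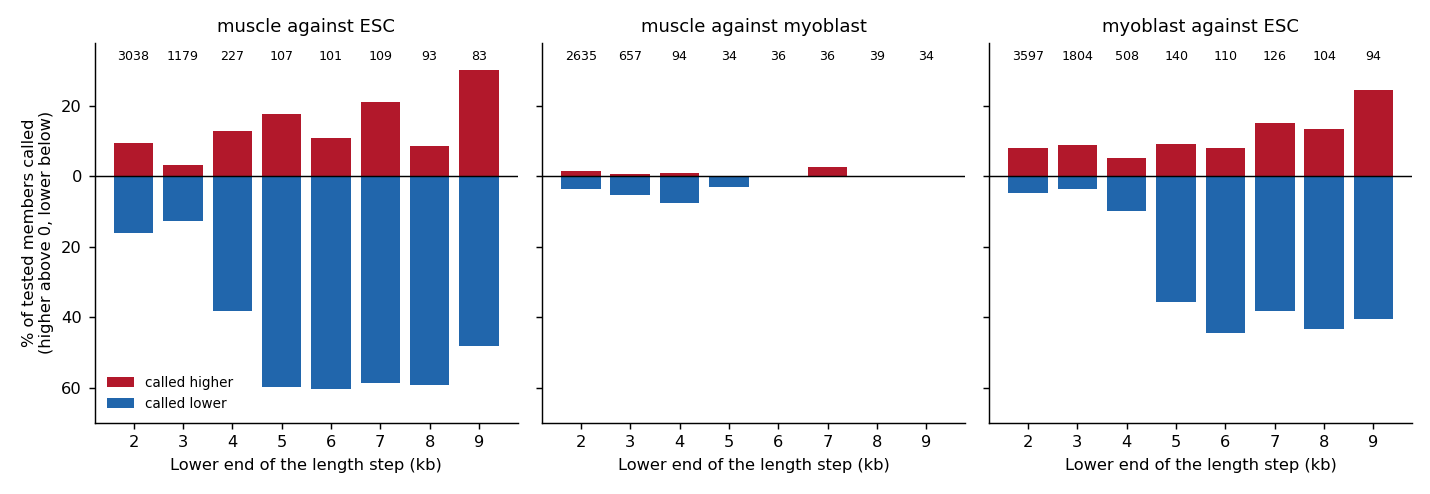
Percent of tested long fragments called higher and lower in each length step, within the length step; panels from left to right show muscle against ESC, muscle against myoblasts and myoblasts against ESC, and numbers on top are the members tested. In muscle against ESC the lower calls are 492 of 3038 in the step from 2000 bp and 40 of 83 in the step from 9000 bp.

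For myoblasts against ESC, 6483 members passed the filter. Within their length step 557 were called higher and 516 lower in myoblasts, beside 9.88% and 10.2% of all 25152 fragments tested. Under TMM scaling 307 were higher and 673 lower, beside 8.22% and 11.7% (19.9% in either direction). Higher calls were thus slightly more than lower ones within the step and fewer under TMM. The balance within the step was not stable: it was 392 higher and 624 lower with the 20 most-read fragments left out of each step's offset, and 455 and 535 without the myoblasts of culture 27. All 516 lower calls and 306 of the 557 higher calls within the step were also made under TMM. Within the step, from 2000 to under 5000 bp 479 of 5909 tested members were higher and 286 lower, and from 5000 bp up 78 of 574 were higher and 230 lower, 85 of these with the ESC pattern. The definition of that pattern already holds these myoblast libraries low, so the 85 are no separate result. The step from 4000 bp already had more lower calls, with 27 higher and 50 lower. Under TMM lower calls were more in both ranges, with 296 higher and 401 lower under 5000 bp and 11 and 272 from 5000 bp up. Without E14Tg2 there were 654 calls within the step, against 1073. This comparison and that of muscle share the ESC libraries, so like values in the 2 are no independent result.

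The leading members lower in myoblasts were much read in ESC. The Gcn1l1 fragment had 1, 1 and 0 reads in myoblasts of cultures 21, 27 and 26, against 8360, 3826 and 3459 in CGR8, RD1 and E14Tg2. The fragment in Myh6, the gene of cardiac alpha-myosin (chr14:55560263-55562442, 2180 bp), had 1, 1 and 0 reads in myoblasts and 4541, 2675 and 1913 in ESC. The Ddr2 fragment (chr1:171995411-171998650, 3240 bp), in an intron of a collagen receptor gene, kept some reads, with 24, 46 and 17 in myoblasts and 8877, 4067 and 2623 in ESC, 118-fold fewer relative to library totals (exact 95% counting interval 95.8 to 148). These members were near zero or low in all 3 cultures, unlike the split members. The fragments in Parva, which encodes a focal adhesion protein (chr7:119623141-119630791, 7651 bp), and Col27a1, a fibrillar collagen gene (chr4:62939397-62944608, 5212 bp), had no reads in myoblasts and were at least 606-fold and 363-fold lower, with 1383, 681 and 684 and 560, 702 and 385 reads in ESC. The Dnmt1 fragment had no reads in myoblasts either and was at least 59.1-fold lower.

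The leading members higher in myoblasts were of 2058 to 3134 bp and had fewer reads. The Ly86 fragment, in a gene for a partner of an immune receptor, had 152, 235 and 127 reads in myoblasts of cultures 21, 27 and 26 and 2, 0 and 0 in ESC. The Tmco7 fragment (chr8:109289023-109291233, 2211 bp) had 157, 120 and 98 reads in myoblasts and 1, 0 and 0 in ESC. The Rere fragment (chr4:149803853-149806262, 2410 bp), in the gene of a transcriptional co-regulator, had 79, 126 and 84 in myoblasts and 4, 1 and 1 in ESC. All cultures stood above all ESC lines at these 3 members. The fragment in Brp44l, a gene of the mitochondrial pyruvate carrier (chr17:8483453-8486066, 2614 bp), had 57, 114 and 56 reads in myoblasts and 3, 3 and 2 in ESC. The fragment in Fzd6, a Wnt receptor gene (chr15:38859974-38862991, 3018 bp), had 16, 46 and 18 reads in myoblasts and 2, 1 and 1 in ESC. The Tgfa fragment, higher in muscle too, had 179, 173 and 44 reads in myoblasts.

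The counts for the gene lists in myoblasts against ESC within the step stand beside 8.59% higher and 7.96% lower of all tested members and 20.1% of all tested fragments called in either direction, and nothing is read from them about a list. Of 52 tested members in genes of neural channels and adhesion 1 was higher and 8 lower. Of 11 in contractile and calcium handling genes 1 was higher, in Ttn, and 1 lower, in Neb, both genes of giant sarcomere proteins. The Neb member (chr2:52013425-52016242, 2818 bp) had 3, 3 and 0 reads in myoblasts and 51, 31 and 34 in ESC. Of 7 in imprinted genes 1 was higher, in Igf2 (chr7:149847704-149849815, 2112 bp), the gene of a fetal growth factor, with 24, 79 and 43 reads in myoblasts and 4, 10 and 6 in ESC. Of 2 in fibroblast genes 1 was higher, in the collagen gene Col5a1 (chr2:27772481-27774578, 2098 bp), with 18, 31 and 30 reads in myoblasts and none in ESC, at least 39.8-fold higher. Of 4 in myogenic regulators 1 was higher, in Met, the receptor of hepatocyte growth factor, and of 5 in genes of the methylation machinery 1 was higher, in Tet1, which oxidises methylcytosine, and 1 lower, in Dnmt1. The Ttn, Met and Tet1 members were not called under TMM scaling. None of the 5 tested members in pluripotency genes, 2 in germ line, 1 in HOX, 8 in endothelial, 6 in blood and 1 in adipocyte genes was called.

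For muscle against myoblasts, 3565 members passed. Under TMM scaling 1791 were called lower and 7 higher in muscle, beside 17.4% and 13.7% of all 20274 fragments tested. Within their step 134 were lower and 45 higher, beside 4.46% and 2.91% (7.36% in either direction). Of the 179 tested members of 5000 bp and longer, 1 was lower and 1 higher within the step. None of 75 tested split members was called. These calls hang on single libraries. Under TMM, leaving out muscle 1 or muscle 2 gave 0 calls, and leaving out the myoblasts of culture 27 gave 941, against 1798. Leaving out muscle 1, 2 or 3, or the myoblasts of culture 27 or 26, gave 0 calls within the step, while leaving out culture 21 gave 438. With culture 21 and muscle 3 both left out, the libraries with few reads at the split members, 1208 were called.

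The members lower in muscle included the Mtmr12 fragment, in the gene of a myotubularin-related protein, with 1, 1 and 1 reads in muscle 1, 2 and 3, against 44, 63 and 55 in myoblasts of cultures 21, 27 and 26, 56.7-fold fewer relative to library totals (exact 95% counting interval 19.06 to 278; edgeR adjusted p = 0.0352 within the step). The Mthfd2 fragment (chr6:83257328-83260409, 3082 bp), in the gene of a mitochondrial folate enzyme, had 2, 1 and 2 reads in muscle and 76, 114 and 50 in myoblasts. The Arpc5l fragment (chr2:38865895-38868774, 2880 bp), in the gene of an actin-nucleating complex subunit, had 1, 0 and 2 reads in muscle and 86, 73 and 57 in myoblasts. At all 3 members the ESC lines also had more reads than muscle, with 31 to 148 each. Among members higher in muscle, the Gpr125 fragment (chr5:50427109-50429129, 2021 bp), in the gene of an adhesion receptor, had 28, 24 and 48 reads in muscle and 13, 29 and 10 in myoblasts, so that raw reads overlapped, with a log2 change of 2.84 ± 0.52 within the step and 1.41 under TMM. The Pcdh15 fragment (chr10:73094910-73097026, 2117 bp), in the gene of a protocadherin of inner ear hair cells, had 94, 35 and 81 reads in muscle and 5, 59 and 6 in myoblasts, and was not called under TMM. These are 5 of the 21 members that the rule named. No list had a member called within the step.

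For day 4 myotubes against myoblasts, edgeR called 0 of 4824 tested members under either scaling, beside 0 of all 22438 fragments tested (0%). At an unadjusted p under 0.05 there were 10 members under TMM and 7 within the step, and DESeq2 called 0. With the culture as a block the count was 0 as well. The tested members had a median log2 change of -0.36 under TMM, beside 0.13 over all tested fragments, and -0.09 within the step. The Tgfa fragment had 172, 159 and 68 reads in day 4 myotubes of cultures 21, 27 and 26 and 179, 173 and 44 in the myoblasts, and the Ly86 fragment had 143, 73 and 174 and 152, 235 and 127, so that stages overlapped at both. A p that misses the threshold does not show that the stages are alike.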

How the data were processed

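DNA was measured by AIMS-seq in 23 libraries. The authors deposited raw read counts per fragment, with CpG and repeat classes; the build is mm9, and Bowtie 0.11.3 and DESeq are named, per the submitters' processing notes. Their normalized table was not used. Here, the CGR8 libraries were summed, read shares were taken of library totals, and detection was the expected number of members with 5 or more reads after thinning to 6237851 reads. Groups were compared by exact permutation. Counts of all fragments were tested with edgeR 4.0.16 (R 4.3.3; quasi-likelihood, minimum count 10, Benjamini-Hochberg) under TMM and under length-step offsets, with DESeq2 1.42.0 as an alternative; edgeR was tested on simulated data. All 346860 fragment ends lay at CCCGGG in the reference. Members named by smallest adjusted p or largest change were called within the step and lay at 1 protein-coding gene. Their reads, scaled to the step, did not overlap between groups. Members named from a list needed only a call, and those named as most read in a step needed none of these. Others were shown as examples of a pattern. Not every member chosen by this rule is described. Members, lists and rules were chosen with earlier results of these data known. Culture numbers in the labels pair the stages. Deviations of log reads from the group mean were correlated between day 4 myotubes and myoblasts. Within cultures 21, 27 and 26 the correlations were 0.852, 0.652 and 0.699. The highest between different cultures was 0.43, for day 4 of culture 27 and myoblasts of culture 26. Where the labels do not say that replicates came from separate animals or cultures, p-values measure only the spread between these samples, which may be technical.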

Additional observations from a re-analysis of the deposited data

How the results depend on the processing

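The read share kept its direction and its side of the threshold under each alternative run. The difference in detected members between muscle and ESC was -653 (exact permutation p = 0.0821) with equal member reads. The difference between muscle and ESC in the share of member reads from 5000 bp up was -1.20 points without the 20 most-read members, -3.27 without the split members (p = 0.0464, exact permutation) and -1.28 to 9.48 when 1 library was left out. In the step from 2000 bp alone 1 context class passed, and the shore share differed by 1.45 points without the 20 most-read members and by 1.07 in that step alone. For muscle against ESC, 6570 members were called under TMM with no filter and 1730 with members alone, and within the step 2324 with no filter and 828 to 1759 when 1 library was left out. For myoblasts against ESC, 2101 were called within the step with no filter, 1703 with DESeq2 and 654 to 1423 when 1 library was left out. For muscle against myoblasts under TMM, 986 were called with members alone, 0 to 2484 when 1 library was left out and 2763 without culture 21 and muscle 3; within the step 368 with no filter, 852 with DESeq2, 426 with all groups, 779 with members alone, 0 to 438 when 1 library was left out and 1208 without culture 21 and muscle 3. Replicate numbers of muscle and myoblasts share only a number; with them as a replicate block 317 were called under TMM and 0 within the step. For day 4 myotubes, 3 (TMM) and 2 (within the step) were called with no filter, and the replicate block left the count at 0. Without the block the stage trends had p = 0.318 for the share and 0.345 for detection (permutation). The causes were not tested. Depth limits long members most, as their median read sum is 20 to 24 from 5000 bp up.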
